A study of Homo sapiens with 6 samples.

Results

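The transcripts of HSF1 and of 9 genes of the HSP70 chaperone system were followed in cells labelled Saos-2 and treated with ailanthone (AIL). HSF1 is the transcription factor of the heat shock response. The other genes were HSPA1A, HSPA1B, HSPA8 and HSPA9 of the HSP70 family, HSPA4, HSPA4L and HSPH1 of the related HSP110 family, and the HSP70 partners DNAJB1 and BAG3. They were taken by symbol from the 13439 genes of the deposited expression table, and all 10 were measured.

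Saos-2 is an established human osteosarcoma cell line. AIL is a quassinoid, a bitter triterpenoid of the tree Ailanthus altissima. The AIL group held 3 libraries of cells kept for 24 h in 0.20 µM AIL, which the labels give as the half-maximal inhibitory concentration, and the DMSO group held 3 libraries of cells kept for 24 h in the solvent. Both groups were the same line without any stated genetic change, grown in medium with fetal bovine serum, and poly(A) selection was not stated. The labels call the 3 libraries of a group biological replicates without saying how the cultures were separated, so the p-values measure the spread between these libraries. The values are read counts scaled to library size, as CPM, after TMM scaling, which takes most genes as unaltered.

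HSP70 proteins bind and release unfolded stretches of other proteins in a cycle driven by ATP. J-domain proteins such as DNAJB1 bring the substrate and start ATP hydrolysis, and exchange factors such as the HSP110 proteins and BAG3 release the ADP so that the substrate is let go. In unstressed cells HSF1 is held inactive, in part by chaperones. Under proteotoxic stress it forms trimers, binds heat shock elements in promoters and raises transcription of HSPA1A, HSPA1B, DNAJB1, HSPH1 and BAG3, while HSPA8 is made at a high level at all times.

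TMM-scaled depth, read from the CPM value of 1 read, was 35910000 to 38050000 reads in the AIL libraries and 32540000 to 35830000 reads in the DMSO libraries. Of 11 osteoblast lineage markers 5 were listed. RUNX2 stood at 4.48 to 5.04 CPM in AIL libraries and 4.36 to 4.95 CPM in DMSO libraries. SPARC, SPP1 and BGLAP were at or below 0.28 CPM in every library, so these markers of bone matrix were near absent, and 6 of the 11 were not analysed here. The name Saos-2 is therefore used as the label of the libraries, and the identity of the line was not tested. Of 7 markers of blood, epithelial and endothelial cells 1 was listed, CDH5, at 0.00 to 0.11 CPM in AIL libraries and 0.03 to 0.12 CPM in DMSO libraries. The 13 transcripts of the mitochondrial genome summed to 3600.5 to 3726.0 CPM in AIL libraries and 4205.4 to 4373.7 CPM in DMSO libraries. Whether this sum reflects RNA quality was not tested. Of the 13, 10 were called lower, beside 25.9% of all genes tested. The part of these transcripts in the results that follow was not tested.

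Promoters of 9 of the 10 genes were in the RefSeq table of GRCh38.p14, as 13 windows from 250 bases before to 50 bases after an annotated start. HSF1 binds arrays of alternating GAA and TTC units, so the windows were searched on both strands for the pairs GAANNTTC and TTCNNGAA, and for 3-unit forms in which both pairs overlap by a shared unit. The 250 bases before the start are shown for HSPA1A and HSPA1B, both called higher, with separate values that are uncertain, as given below. They are also shown for HSPA8, the constitutive relative, and for DNAJB1 at its second listed start. That start carries the motif, while the transcript of DNAJB1 did not pass the test. HSPA1A lies at chr6:31815293-31815542 and HSPA1B at chr6:31827488-31827737, both on the plus strand, and HSPA8 lies at chr11:123062137-123062386 and DNAJB1 at chr19:14518398-14518647, both on the minus strand (GRCh38.p14). Each is written 5′ to 3′ and ends at the base before the start, and capitals mark the bases of every pair found.
HSPA1A: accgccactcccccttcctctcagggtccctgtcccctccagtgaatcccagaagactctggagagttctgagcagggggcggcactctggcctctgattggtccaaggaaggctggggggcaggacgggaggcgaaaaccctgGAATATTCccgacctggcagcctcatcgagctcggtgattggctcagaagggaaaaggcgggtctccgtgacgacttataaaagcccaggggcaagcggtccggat
HSPA1B: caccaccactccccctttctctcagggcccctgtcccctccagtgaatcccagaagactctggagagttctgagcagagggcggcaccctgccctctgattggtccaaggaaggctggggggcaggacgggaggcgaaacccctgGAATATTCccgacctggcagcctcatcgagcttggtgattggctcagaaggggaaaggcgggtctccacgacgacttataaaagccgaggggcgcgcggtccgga
HSPA8: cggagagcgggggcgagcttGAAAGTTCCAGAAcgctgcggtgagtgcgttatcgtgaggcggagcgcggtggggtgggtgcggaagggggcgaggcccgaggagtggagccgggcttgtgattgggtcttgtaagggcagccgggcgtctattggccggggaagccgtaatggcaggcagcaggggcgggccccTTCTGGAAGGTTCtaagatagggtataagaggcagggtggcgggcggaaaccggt
DNAJB1: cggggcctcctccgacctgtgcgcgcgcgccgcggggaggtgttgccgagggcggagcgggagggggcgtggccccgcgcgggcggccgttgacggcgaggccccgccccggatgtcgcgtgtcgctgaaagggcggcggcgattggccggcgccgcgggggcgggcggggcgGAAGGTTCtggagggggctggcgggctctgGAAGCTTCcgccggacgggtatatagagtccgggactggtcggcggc

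The windows of HSPA1A and HSPA1B were 92% identical, with 277 identical bases in 301 aligned columns. Each held 1 GAANNTTC pair, which began 106 bases before the start of HSPA1A and 105 bases before that of HSPA1B. HSPA8 held 2 of the 3-unit forms, which began 230 and 55 bases before its start. At the second start of DNAJB1, GAANNTTC pairs began 77 and 47 bases before the start, and at the third start 1 pair began 2 bases inside the transcript. HSPA4L, at the second of its 3 starts, and HSPA9 each held 1 TTCNNGAA pair, and the windows of HSPA4, HSPH1 and BAG3 held none of these exact forms. Either pair occurred in 7 of the 13 windows, against 13.5% of all 35116 windows of the table, and a 3-unit form in 1 of the 13, against 0.49% of all windows. A match of letters is not a binding site, and a window without one says nothing of HSF1 binding.

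**Figure D1:**
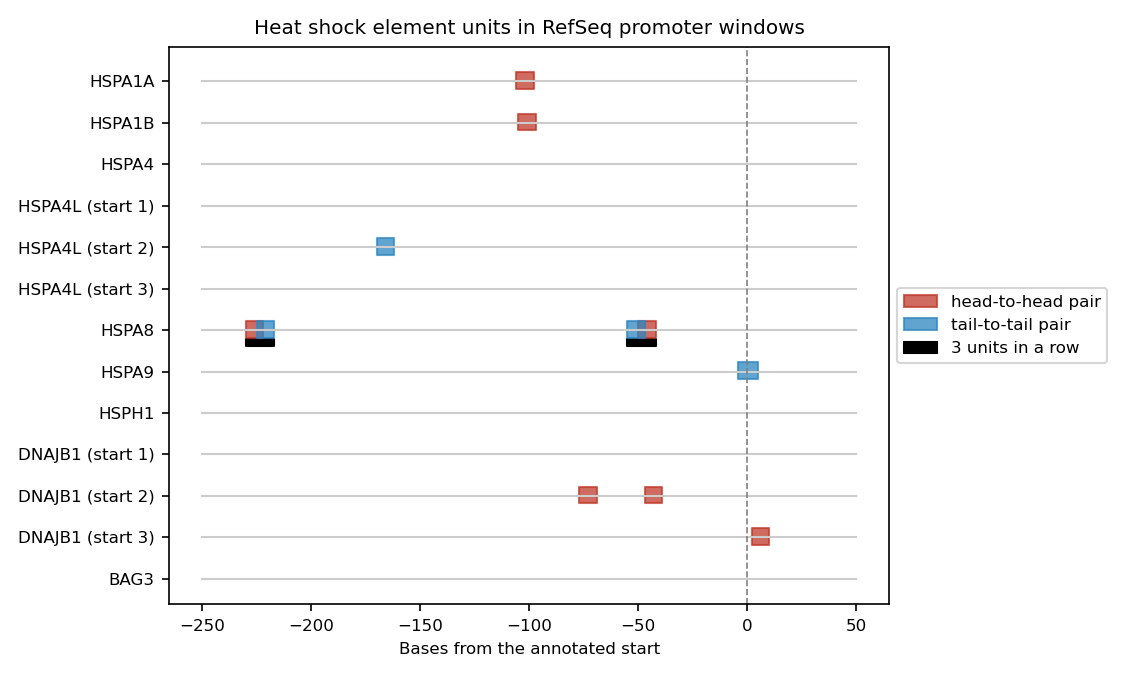
Positions of heat shock element units in 13 RefSeq promoter windows of 9 genes, with the distance in bases from the annotated start on the x axis and 1 window per row. Red marks the head-to-head pair GAANNTTC, blue the tail-to-tail pair TTCNNGAA and black a run of 3 units, which appears at 2 places in HSPA8 and in no other window shown.

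Of the 10 genes, 5 rose and 3 fell under AIL with limma at an adjusted p under 0.05, against 54.1% of all 11069 tested genes called in either direction. Over all tested genes 28.2% were called higher and 25.9% lower, and with quantile normalization 4 of the 10 were higher and 4 lower, since HSPA8 turned. With HSPA1A and HSPA1B, whose separate values are uncertain, summed into a single entry, 4 were higher and 3 lower. For 8 of the 10 the groups were fully apart, against 60.1% of all genes tested. The median log2 difference of the 10 was 0.07, against 0.01 over all genes tested. This median was -0.03 after quantile normalization, against -0.01 over all genes, and -0.04 without HSPA1A and HSPA1B. The counts and the median are described, and no test of the set is given. HSF1, HSPA1A and HSPA1B stood furthest up and HSPA4L furthest down, while DNAJB1 and BAG3 did not pass the test.

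**Figure D2:**
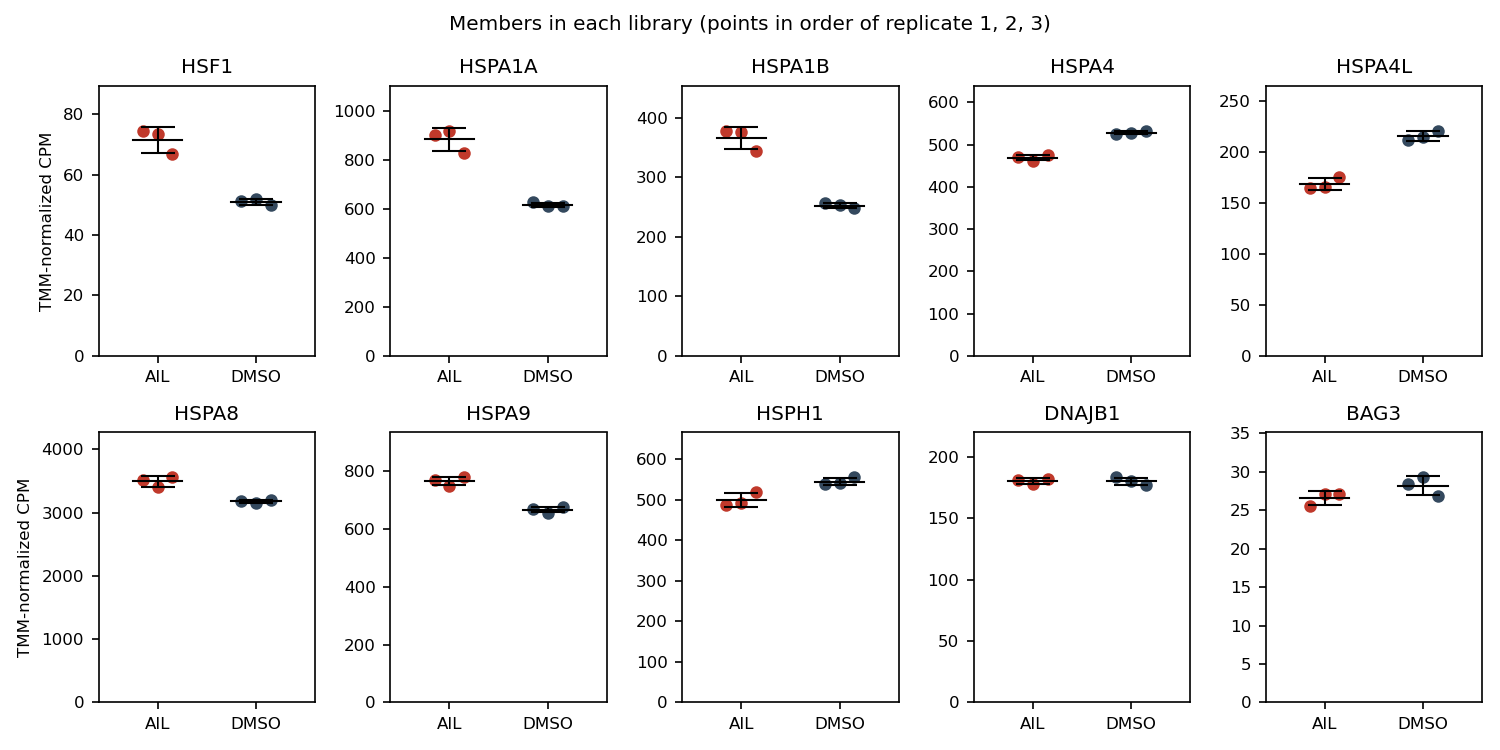
TMM-normalized CPM of each of the 10 genes (y axis, from 0) in the 3 AIL and the 3 DMSO libraries (x axis). Points are libraries in the order of replicates 1 to 3, and lines are the mean ± SD. HSF1, HSPA1A and HSPA1B lie 40.2 to 45.1% higher in AIL libraries, and the points of DNAJB1 and BAG3 overlap between the groups.

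HSF1, the regulator, had 74.43, 73.35 and 66.67 CPM in AIL libraries, against 51.22, 51.91 and 49.84 CPM in DMSO libraries. The groups did not overlap, and AIL replicate 3 was the lowest of the treated libraries. HSF1 averaged 71.5 ± 4.20 CPM under AIL and 51.0 ± 1.05 CPM under DMSO (SD, n = 3 each), which is 40.2% higher. On the log2(CPM + 1) scale the difference, AIL minus DMSO, was 0.48 with a standard error of 0.0403 (limma adjusted p = 3.17e-08). It ranked 257 from the highest of the 11069 differences. In these bulk libraries, a change in the share of cells that hold a transcript and a change in its amount per cell cannot be told apart. The values of HSF1 rest on 1667 to 2832 reads per library, and 0% of the 50-base words of HSF1 transcripts occur in another annotated gene.

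HSPA1A and HSPA1B encode the stress-inducible cytosolic HSP70. HSPA1A had 901.41, 917.03 and 828.66 CPM in AIL libraries, against 625.55, 610.37 and 611.76 CPM in DMSO libraries. HSPA1B had 377.47, 375.05 and 344.64 CPM in AIL libraries, against 256.02, 252.59 and 247.67 CPM in DMSO libraries. Both were higher in every AIL library than in any DMSO library, and AIL replicate 3 was again the lowest treated one. HSPA1A rose by 43.3% (log2 difference 0.52, SE 0.0320, limma adjusted p = 8.24e-10). HSPA1B rose by 45.1% (log2 difference 0.53, SE 0.0318, limma adjusted p = 5.11e-10).

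The separate values of this pair are uncertain, because 71.3% of the 50-base words of HSPA1A transcripts and 73.5% of those of HSPA1B occur in another gene, nearly all of them in each other. A further transcript annotated as AL671762.1 lies over 36.5% of the exon bases of HSPA1B on the same strand. Their sum does not depend on how reads were split between the copies. It averaged 1248.1 ± 65.1 CPM in AIL libraries and 868.0 ± 11.9 CPM in DMSO libraries (SD, n = 3 each), a log2 difference of 0.52 (limma adjusted p = 6.78e-10). The log2 ratio of HSPA1A to HSPA1B was 1.27 ± 0.0175 under AIL and 1.29 ± 0.0158 under DMSO (SD, n = 3 each), and the groups overlapped. The difference was -0.02 (exact permutation p = 0.300, adjusted p = 0.300 over 4 ratios, two-sided), which does not show that the share of each copy was the same. It was -0.011 without AIL replicate 1, -0.028 without AIL replicate 2 and -0.010 without DMSO replicate 3.

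HSPA8 encodes the constitutive cytosolic HSP70, and per kilobase of the longest principal GENCODE transcript it had the highest level of the 10 genes. That level was 1418.5 ± 32.8 CPM per kilobase in AIL libraries and 1291.0 ± 8.11 CPM per kilobase in DMSO libraries (SD, n = 3 each). On the same scale HSPA1A stood at 355.4 ± 19 in AIL libraries and 248.0 ± 3.38 in DMSO libraries. In CPM, HSPA8 had 3521.67, 3402.75 and 3557.01 in AIL libraries, against 3179.72, 3159.66 and 3199.62 in DMSO libraries. The groups did not overlap, and the gene rose by 9.88% (log2 difference 0.14, SE 0.0269, limma adjusted p = 3.85e-04), but after quantile normalization it was lower, at -0.125 (limma adjusted p = 2.67e-06). Of the 62 genes that averaged 1000 CPM or more, 39 were higher and 10 lower, beside 28.2% and 25.9% of all genes tested. The median log2 difference of these 62 was 0.17 with TMM values and 0.02 after quantile normalization. Of the 50-base words of HSPA8, 8.23% occur in other genes, pseudogenes included.

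The ratio of inducible to constitutive transcript does not depend on the scaling of libraries by a factor. The log2 ratio of HSPA1A plus HSPA1B to HSPA8 was -1.46, -1.40 and -1.60 in AIL libraries, against -1.85, -1.87 and -1.90 in DMSO libraries. All AIL libraries lay above all DMSO libraries, and AIL replicate 3 was nearest to them. The mean ratio was 0.357 under AIL and 0.273 under DMSO, a log2 difference of 0.39 (exact permutation p = 0.1, two-sided, adjusted p = 0.200 over 4 ratios), and 0.1 is the smallest p that 3 libraries against 3 allow.

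HSPA9 encodes the mitochondrial HSP70, also called mortalin, which pulls proteins through the inner mitochondrial membrane and folds them. It had 769.29, 750.77 and 778.73 CPM in AIL libraries, against 671.21, 656.32 and 675.22 CPM in DMSO libraries. The groups did not overlap, and HSPA9 rose by 14.8% (log2 difference 0.20, SE 0.0246, limma adjusted p = 3.14e-06). After quantile normalization its difference was 0.083 (limma adjusted p = 0.00220). The mitochondrially encoded transcripts beside it were lower, with a median log2 difference of -0.20.

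**Figure D3:**
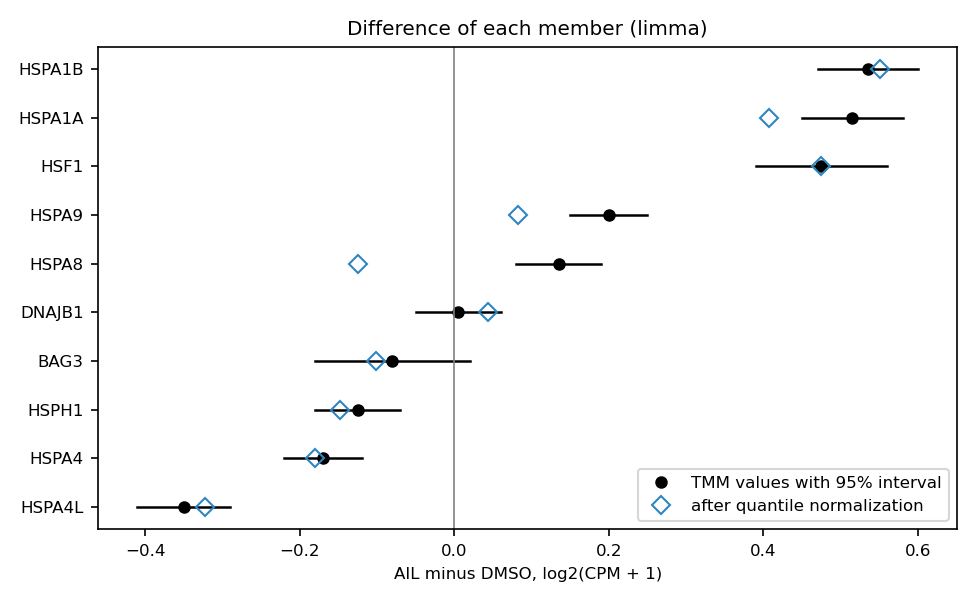
Log2 difference of each gene (x axis, AIL minus DMSO, log2(CPM + 1)), with genes in rows ordered by the value. Black points and lines are the limma estimate and its 95% interval from TMM values, and open diamonds are the estimate after quantile normalization. HSPA8 lies at 0.14 with TMM values and at -0.125 after quantile normalization, and the other genes that passed the test keep their side.

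The 3 HSP110 genes fell. Their products are HSP70 relatives that act as exchange factors for HSP70 and help it to take aggregates apart. HSPA4L had 165.11, 165.99 and 176.03 CPM in AIL libraries, against 211.68, 214.85 and 220.99 CPM in DMSO libraries. HSPA4 had 470.77, 462.22 and 474.69 CPM in AIL libraries, against 525.87, 527.32 and 532.14 CPM in DMSO libraries. HSPH1, itself a heat-inducible gene, had 488.09, 492.38 and 520.50 CPM in AIL libraries, against 538.83, 540.88 and 555.11 CPM in DMSO libraries. In none of the 3 did the groups overlap, and the gap was narrowest for HSPH1, where AIL replicate 3 came close to the lowest DMSO library.

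HSPA4L fell by 21.7% (log2 difference -0.35, SE 0.0297, limma adjusted p = 3.36e-08) and ranked 399 from the lowest of all differences. HSPA4 fell by 11.2% (log2 difference -0.17, SE 0.0235, limma adjusted p = 9.85e-06). HSPH1 fell by 8.19% (log2 difference -0.12, SE 0.0275, limma adjusted p = 0.00107). The log2 ratio of HSPA4L to HSPA4 was -1.47 ± 0.0404 under AIL and -1.29 ± 0.0227 under DMSO (SD, n = 3 each), without overlap, a difference of -0.18 (exact permutation p = 0.1, adjusted p = 0.200). For HSPH1 to HSPA4 the log2 ratio was 0.09 ± 0.0404 under AIL and 0.04 ± 0.0145 under DMSO, and the groups overlapped (difference 0.05, exact permutation p = 0.200, adjusted p = 0.267). Without AIL replicate 3 that difference was 0.027.

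**Figure D4:**
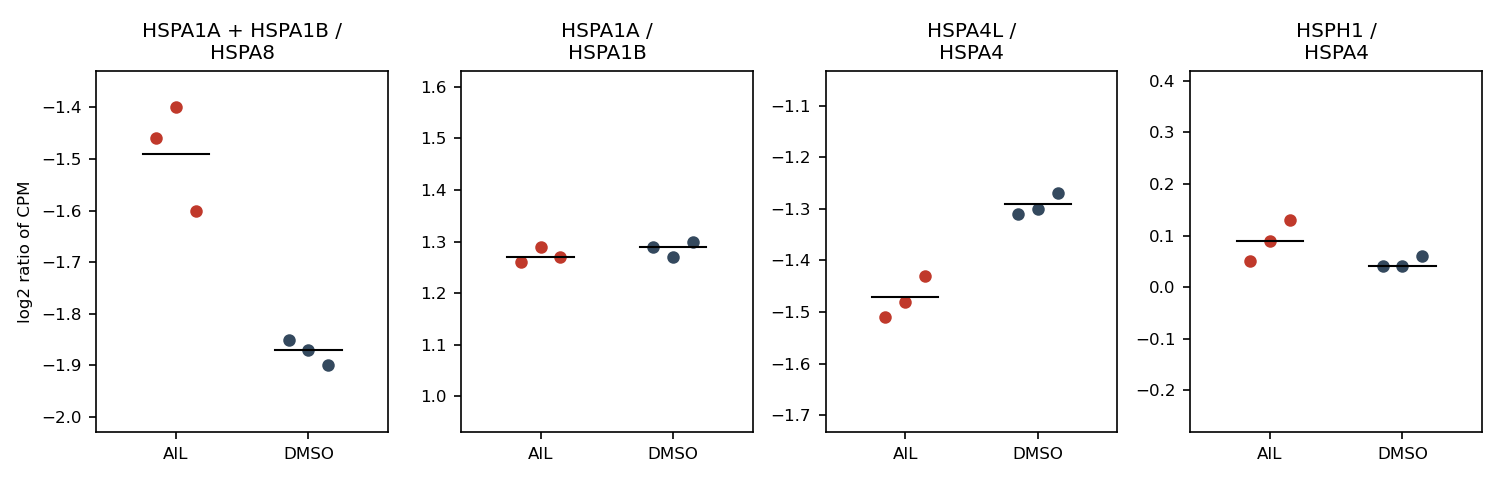
Log2 ratio of CPM between pairs of genes (y axis, all panels spanning the same range) in AIL and DMSO libraries (x axis). Points are libraries and lines are means. The ratio of HSPA1A plus HSPA1B to HSPA8 is 0.39 higher and that of HSPA4L to HSPA4 0.18 lower under AIL without overlap, while the other 2 panels overlap.

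DNAJB1 and BAG3 are partners of HSP70 and heat shock genes themselves. DNAJB1, the J-domain protein that works with cytosolic HSP70, had 181.03, 177.93 and 182.01 CPM in AIL libraries, against 183.20, 180.10 and 177.09 CPM in DMSO libraries. Its log2 difference was 0.00, with a 95% interval of -0.05 to 0.06 (limma adjusted p = 0.963). BAG3, an exchange factor that couples HSP70 to autophagy, had 25.57, 27.12 and 27.15 CPM in AIL libraries, against 28.36, 29.27 and 26.82 CPM in DMSO libraries. The groups overlapped for both genes. BAG3 differed by -0.08, with a 95% interval of -0.18 to 0.02 (limma adjusted p = 0.169), and by -0.050 without AIL replicate 1 or without DMSO replicate 2. The upper ends of both intervals lie below 0.52, the difference of the summed HSPA1A and HSPA1B, and the difference between these genes was not itself tested. Exons of genes on the opposite strand lie over 6.21% of the exon bases of DNAJB1, 2.62% of those of HSF1 and 6.19% of those of HSPA4L, and whether counting used strand is not stated in the labels.

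AIL replicate 3 was the treated library nearest to the DMSO mean for 6 of the 8 genes that passed the test, which are HSF1, HSPA1A, HSPA1B, HSPA4, HSPA4L and HSPH1. Over all 5991 called genes it was nearest for 44.4%. Without it, HSF1 differed by 0.527, HSPA1A by 0.561 and HSPA4L by -0.380 on the log2(CPM + 1) scale. The counts of 5 higher and 3 lower genes were the same with each library left out in turn.

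The genes whose profile over the 6 libraries lay closest to that of HSF1 were PDRG1, FLNA, MTX1, IER3 and NDUFB10. Closeness was the root mean square distance between log2(CPM + 1) profiles, each centred on its mean, among 9722 genes averaging 5 CPM or more. The distances were 0.0196 for PDRG1, 0.0202 for FLNA, 0.0218 for MTX1 and IER3, and 0.0219 for NDUFB10. Closeness by this measure requires a similar difference between the groups. The log2 differences of these genes were 0.45 to 0.49, against 0.48 for HSF1, and shared regulation was not tested. FLNA, which encodes the actin cross-linker filamin A, averaged 748.7 ± 49.9 CPM under AIL and 536.6 ± 7.93 CPM under DMSO (SD, n = 3 each). PDRG1 averaged 32.8 ± 1.37 CPM under AIL and 23.2 ± 0.652 CPM under DMSO. HSPA1A and HSPA1B came 17 and 18 in this order, at distances of 0.0306 and 0.0312, and the other 7 of the 10 genes came at rank 1680 or beyond. Of the words of MTX1, 15.5% occur in a pseudogene.

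Of the other HSP70 and HSP110 relatives, 8 of 10 were listed and 6 were tested. Of those 6, 1 rose and 3 fell, beside 28.2% higher and 25.9% lower of all genes tested. The member that rose was HSPA6, a strictly stress-inducible HSP70 gene, which had 2.44, 2.57 and 2.92 CPM in AIL libraries, against 1.04, 1.03 and 1.06 CPM in DMSO libraries. The groups did not overlap, and the log2 difference of 0.83 (SE 0.0956, limma adjusted p = 1.28e-06) depends on the pseudocount at so low a level, being 1.26 with a pseudocount of 0.1 and 0.34 with one of 5. Of its 50-base words 45.5% occur in HSPA7, which was not analysed here. Those that fell belong to the endoplasmic reticulum. HSPA5, its main HSP70, averaged 217.7 ± 10.1 CPM under AIL and 329.4 ± 5.46 CPM under DMSO (SD, n = 3 each), HYOU1, its HSP110 relative, 178.6 ± 5.04 CPM under AIL and 240.3 ± 4.61 CPM under DMSO, and HSPA13 105.4 ± 7.20 CPM under AIL and 121.0 ± 3.31 CPM under DMSO.

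Among 38 tested J-domain proteins 12 rose, 9 fell and 17 did not pass, with a median log2 difference of 0.02. These shares are near the 28.2% higher and 25.9% lower of all genes tested. DNAJA3 and DNAJC11, both mitochondrial, rose by 0.40 and 0.29 on the log2(CPM + 1) scale (limma adjusted p = 4.51e-09 and 4.30e-07). DNAJC10, DNAJB11 and DNAJC3, which serve the endoplasmic reticulum, fell by 0.35, 0.34 and 0.20 on that scale (limma adjusted p = 1.17e-08, 5.30e-08 and 1.46e-05). Further J-domain proteins of the endoplasmic reticulum went both ways. DNAJB12 and DNAJC16 each rose by 0.22 (limma adjusted p = 4.04e-05 and 1.12e-04). DNAJB9 and DNAJB14 fell by 0.20 and 0.14 (limma adjusted p = 0.0152 and 3.02e-04). DNAJC1 and DNAJC14 were also lower, at -0.19 and -0.12 (limma adjusted p = 0.00624 and 0.00311). SEC63 and DNAJC18 did not pass (limma adjusted p = 0.0526 and 0.0905). Of further mitochondrial ones, DNAJC15, DNAJC19 and DNAJC30 rose by 0.31, 0.16 and 0.24 (limma adjusted p = 3.82e-05, 0.00753 and 0.0316). HSCB and DNAJC28 did not pass (limma adjusted p = 0.164 and 0.846). DNAJC3 and these further genes were chosen after their values were seen, and a difference between compartments was not tested.

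Among exchange factors and adaptors of HSP70, 4 of 12 rose and 2 fell, with a median log2 difference of 0.06 (4 higher and 0 lower after quantile normalization, and 0 lower without an intensity trend). Over all genes tested 28.2% were called higher and 25.9% lower. BAG5 averaged 83.7 ± 2.24 CPM under AIL and 70.9 ± 1.89 CPM under DMSO (SD, n = 3 each; log2 difference 0.24, limma adjusted p = 1.17e-05). BAG6 rose by 0.13 on the log2(CPM + 1) scale. GRPEL2, which works with mitochondrial HSP70, rose by 0.11, a call lost without DMSO replicate 3 (limma adjusted p = 0.0760). BAG2 fell by 0.10, a call lost after quantile normalization (limma adjusted p = 0.0910), without an intensity trend (limma adjusted p = 0.0648) and without AIL replicates 1 or 2 or DMSO replicates 1 or 2 (limma adjusted p = 0.0593, 0.0829, 0.0634 and 0.0779).

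Of 12 tested genes of the HSF family and of HSF1 regulators, 4 rose and 2 fell, with a median log2 difference of 0.06, beside 28.2% higher and 25.9% lower of all genes tested. HSF2, the paralog of HSF1, averaged 23.3 ± 1.01 CPM under AIL and 23.2 ± 0.263 CPM under DMSO (SD, n = 3 each; limma adjusted p = 0.927) and was chosen after its values were seen. DAXX, reported to assist activation by HSF1 and sharing 11.8% of its words with another gene, rose by 0.27, and SIRT1, a deacetylase reported to prolong DNA binding by HSF1, by 0.17 on the log2(CPM + 1) scale. HSBP1L1, a relative of an HSF1-binding protein, rose by 0.20 (limma adjusted p = 0.0132), a call lost without AIL replicates 1 or 2 or DMSO replicate 3 (limma adjusted p = 0.0593, 0.0619 and 0.0604). VCP, an ATPase that extracts ubiquitin-tagged proteins, fell to 395.0 ± 7.73 CPM under AIL, against 508.6 ± 7.97 CPM under DMSO (log2 difference -0.36, limma adjusted p = 2.84e-09).

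Of 19 other heat shock genes 6 were called higher and 8 lower, beside 28.2% and 25.9% of all genes tested, with a median log2 difference of -0.03. The 8 lower calls became 5 without a filter, 3 without an intensity trend, 4 without AIL replicate 2, 5 without DMSO replicate 1 and 4 without DMSO replicate 2. AHSA1, which stimulates the ATPase of HSP90, averaged 216.8 ± 0.324 CPM under AIL and 259.4 ± 1.18 CPM under DMSO (SD, n = 3 each; log2 difference -0.26, limma adjusted p = 1.02e-07). HSPD1, the mitochondrial HSP60, rose by 0.24 on the log2(CPM + 1) scale, or 0.1 after quantile normalization, with 13.2% of its words shared. Its partner HSPE1, chosen after its values were seen, fell by 0.10 (limma adjusted p = 0.00572). HSPA6 is also on this list. Beside each of these lists stood the lower mitochondrially encoded transcripts, with a median log2 difference of -0.20.

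**Figure D5:**
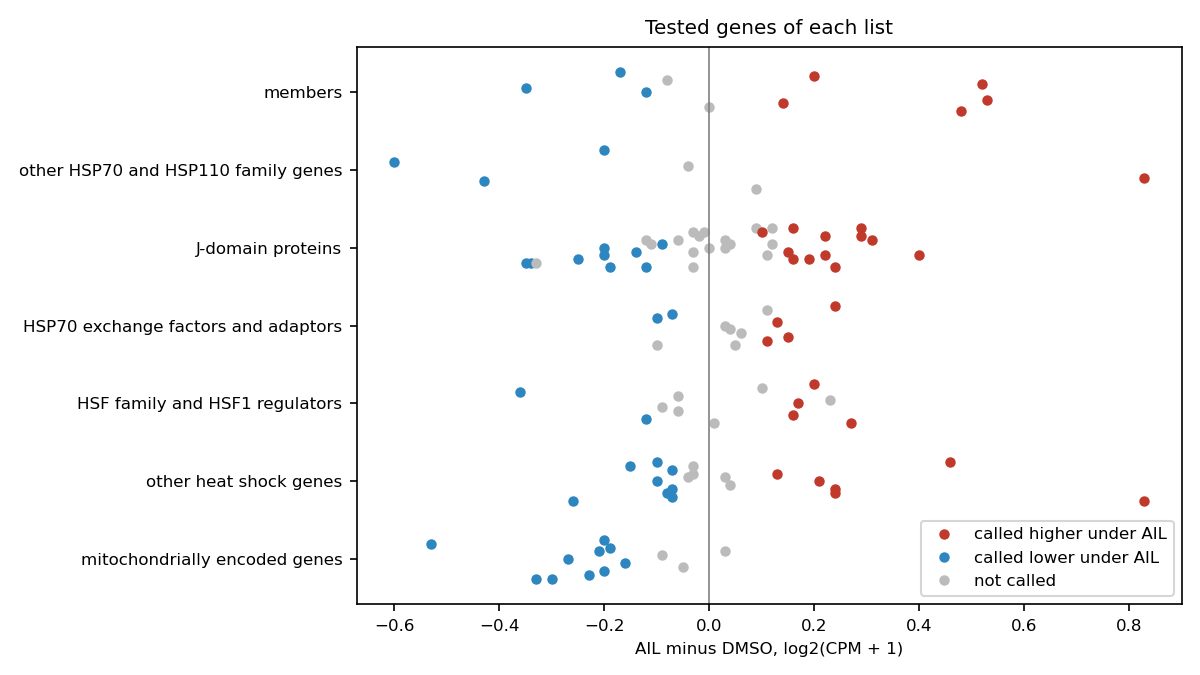
Log2 difference (x axis, AIL minus DMSO, log2(CPM + 1)) of every tested gene of each list, 1 row per list with a vertical spread for legibility. Red and blue points passed limma at an adjusted p under 0.05 as higher and lower under AIL, and grey points did not. The 10 genes of the top row span -0.35 to 0.53. HSPA8 lies on the higher side here and on the lower side only after quantile normalization. The other rows hold calls in both directions, apart from the mitochondrially encoded genes. Of those, 10 of 13 are lower, beside 25.9% of all genes tested.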

How the data were processed

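The authors deposited 1 table of TMM-normalized CPM per gene and library, per the file name, printed to 2 decimals, and all 6 value columns were used. RSEM and edgeR 3.8.5 are named, without a role, per the submitters' processing notes; the sources used here do not name the aligner, build, annotation or strand use. Of values up to 2000 reads, 99.95 to 99.98% lay within 0.2 reads of a whole number and 52.5 to 65.3% within 0.1 reads. Rounding to 2 decimals moves a value by up to 0.163 to 0.190 reads, so the smaller shares do not speak against whole counts. No count test was run. Samples were grouped by title. The 11069 genes averaging 1 CPM or more entered limma (version 3.58.1, R 4.3.3) as log2(CPM + 1) values. The fit used an intensity trend, two-sided tests and Benjamini-Hochberg adjustment over all of these genes. It was also run on simulated data with few altered genes and equal depth in all libraries. That run does not test the fit at the share of calls seen here, nor the choice of scaling. The genes and lists were chosen with earlier results of these data known. Named genes were all 10 members, up to 4 called genes per list by smallest p, and the 5 closest to HSF1. Deviations from group means correlated at 0.159, 0.133 and 0.129 between same-numbered AIL and DMSO libraries, so a replicate block was tried. Shared words, lengths and exon overlap came from GENCODE v29, and promoters from RefSeq (GRCh38.p14). Promoters were aligned with Biopython 1.88. Some genes that these rules name are not reported here.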

Additional observations from a re-analysis of the deposited data

How the results depend on the processing

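Across the other pseudocounts, filters, scalings, trend setting, replicate block, summed HSPA1A and HSPA1B, and libraries left out, 143 of 148 recomputed member differences kept their direction and their side of the threshold. The exceptions were HSPA8 after quantile normalization (-0.125), where the cause was not tested, and DNAJB1, which was not called and changed sign with median-of-ratios scaling (-0.008) and without AIL replicate 1 (-0.001), AIL replicate 3 (-0.005) or DMSO replicate 3 (-0.011), with a range of -0.011 to 0.014 over the libraries left out. The replicate block changed no call among the members, with 5 higher and 3 lower. HSF2, not called, turned to -0.019 after quantile normalization, -0.003 with median-of-ratios scaling, and -0.005 and -0.018 without AIL replicates 2 and 3 (-0.018 to 0.040 over the libraries left out). With 1 library left out, 2709 to 3270 genes were called higher and 2527 to 2924 lower, and the log2 ratio of HSPA1A plus HSPA1B to HSPA8 differed by 0.342 to 0.444. Under the replicate block 3347 genes were called higher and 3121 lower, and the ratio differed by 0.387 (exact permutation p = 0.250, the smallest 3 pairs allow). Small list counts moved most: 18 of 180 moved by over 1.5 times. Exchange factors numbered 2 to 4 higher and 0 to 2 lower, and HSF regulators 3 to 5 higher and 1 to 3 lower, with 1 library left out. HSPA6 averaged under 5 CPM and was not tested with that minimum. Recomputed list counts and genes other than the members were added after seeing the data.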
